A study of Homo sapiens with 4 samples.

Results

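The genes described here drive cells through mitosis: the cyclins and kinases that start it, the kinetochore and its checkpoint, the kinesins and other proteins that build the spindle, and the proteins that divide the cell and package its chromosomes. They were chosen by name from a list of 48 genes, and 47 of them were matched by a single gene symbol among the 18377 genes named on the array. CENPA, the centromeric histone, was the exception, because its probe set also names SLC35F6. All 47 were bright enough to be counted in both lines, that is, the higher array of the line was at or above 6.13, the median log2 signal of the whole table.

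The samples were A549 and H441, which are established human lung adenocarcinoma cell lines, taken 48 h after lipid transfection with siTAZ, an siRNA named for the transcriptional co-activator TAZ (gene WWTR1), or with siNTC, the control siRNA. The 4 groups were A549 with siTAZ, A549 with siNTC, H441 with siTAZ and H441 with siNTC, each measured on 1 Affymetrix whole-transcript array, so there is no replicate within a line. All 4 groups received an siRNA and the transfection reagent, and no untransfected group is used here. The siRNA sequences were not given in the sources used here.

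Values are log2 signals made by the authors with RMA, which summarises the probes of a gene, and a difference is siTAZ minus siNTC on that log2 scale. The array medians were 6.06 with siTAZ and 6.05 with siNTC in A549, and 6.25 with siTAZ and 6.17 with siNTC in H441. WWTR1 was at 7.64 with siTAZ and 10.04 with siNTC in A549, and at 7.47 with siTAZ and 9.61 with siNTC in H441, which left 19.0% and 22.7% of the control signal. The epithelial genes KRT7, KRT8, KRT18, KRT19, CDH1 and EPCAM were above the table median on every array. Of 7 blood and endothelial markers, only CD14 reached it, in A549 (7.94 with siTAZ and 7.22 with siNTC). Of 6 surfactant lineage genes, 5 were counted in H441, 2 in A549 and 1 in both. NKX2-1, NAPSA, SLC34A2 and SFTPB were above the table median in H441 on both arrays and below it in A549 on both. The genes counted in A549 were the others of the list, SFTPC and ABCA3.

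As background, mitosis begins when cyclin B bound to CDK1 becomes active, aided by cyclin A2 and by the phosphatase CDC25C. Chromosomes then attach to spindle microtubules through kinetochores, and the spindle checkpoint holds back the anaphase-promoting complex until every kinetochore is attached. Messages of most of these genes accumulate late in the cell cycle and are kept low in resting cells by the DREAM complex, whose MuvB core binds a promoter element called the cell cycle genes homology region, with letters TTTGAA, often next to CCAAT boxes bound by NF-Y. TAZ reaches its own target genes through TEAD factors, which bind sites with the core GGAATG.

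Promoter letters from RefSeq, build GRCh38.p14, are shown for 7 genes because they carry the contrasts described in the rest of the text: the gene that fell (ANLN), other genes that were lower in H441 (KIF18A, HMMR, CCNB2, CCNB1), one that was nearly level (PLK1) and the one that rose (CENPK). Each stretch is the last 120 bases before the annotated start, written 5′ to 3′ on the strand of the gene. Capitals mark every match, read on either strand, to the TTTGAA element, to the CCAAT box and to the GGAATG core; where matches touch or overlap, their letters run together.
ANLN, chr7:36389742-36389861, plus strand: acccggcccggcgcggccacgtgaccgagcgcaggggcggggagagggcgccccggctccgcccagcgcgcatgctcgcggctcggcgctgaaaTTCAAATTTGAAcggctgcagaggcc
KIF18A, chr11:28108157-28108276, minus strand: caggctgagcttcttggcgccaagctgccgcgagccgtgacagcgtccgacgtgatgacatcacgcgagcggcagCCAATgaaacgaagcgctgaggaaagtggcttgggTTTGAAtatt
HMMR, chr5:163460512-163460631, plus strand: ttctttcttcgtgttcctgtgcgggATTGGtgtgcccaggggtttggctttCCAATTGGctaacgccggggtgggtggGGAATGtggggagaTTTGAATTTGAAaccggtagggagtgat
CCNB2, chr15:59105026-59105145, plus strand: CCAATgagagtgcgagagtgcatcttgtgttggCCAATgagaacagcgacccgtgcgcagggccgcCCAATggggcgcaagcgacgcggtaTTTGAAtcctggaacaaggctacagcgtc
PLK1, chr16:23678769-23678888, plus strand: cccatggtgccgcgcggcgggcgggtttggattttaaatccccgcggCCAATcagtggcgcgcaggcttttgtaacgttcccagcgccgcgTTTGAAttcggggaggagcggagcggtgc
CCNB1, chr5:69167030-69167149, plus strand: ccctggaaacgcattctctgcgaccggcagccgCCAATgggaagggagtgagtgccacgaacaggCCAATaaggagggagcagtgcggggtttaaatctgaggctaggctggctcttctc
CENPK, chr5:65563169-65563288, minus strand: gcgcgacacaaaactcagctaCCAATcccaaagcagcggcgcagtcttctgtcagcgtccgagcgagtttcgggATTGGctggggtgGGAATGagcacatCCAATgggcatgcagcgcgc

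A CCAAT box upstream of a TTTGAA element, a layout often found in late cell cycle promoters, is present in some of these stretches and not in others. In KIF18A, CCNB2 and PLK1 a CCAAT box lies upstream of a TTTGAA match close to the start, at -10 to -5 in KIF18A, -29 to -24 in CCNB2 and -29 to -24 in PLK1, counted from the annotated start with no position 0. ANLN has 2 matches back to back, on opposite strands, at -26 to -21 and -20 to -15, and no CCAAT box in its window. HMMR has 2 in tandem at -28 to -23 and -22 to -17, a pair of overlapping CCAAT matches on opposite strands and a GGAATG match at -42 to -37. CCNB1 and CENPK have CCAAT boxes and no TTTGAA match in the window.

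Windows of 300 bases, from 250 before to 50 after a start, were found for 41 of the 47 genes, 50 windows in all, since some genes have several starts. TTTGAA matched in 32 of these 50 windows (64.0%), against 15.2% of all 35116 windows in the table. Some windows of one gene overlap, and the matches lay at 42 separate sites, of which 32 began at or after position -100 of a window. CCAAT matched in 34 of 50 (68.0%), against 34.6% of all windows. Both were present in 23 of 50 (46.0%), against 5.90%. GGAATG matched in 8 of 50 (16.0%), against 14.0%, a share near that of all promoters. Related genes outside the 47 shared these letters in part: TTTGAA matched in 20 of 38 windows of other genes of mitotic entry, spindle and cytokinesis (52.6%), in 10 of 28 of other kinetochore and passenger genes (35.7%) and in 1 of 45 of G1/S and DNA replication genes (2.22%). CCAAT matched in 63.2%, 67.9% and 57.8% of the windows of those lists in the same order. The differences between the lists were not tested. A match is a description of letters and does not show that a factor binds there.

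In H441, 44 of the 47 mitosis genes had a lower signal with siTAZ than with siNTC, against 48.8% of all 11911 genes counted. Among all genes within the same range of mean signal, 54.2% were lower. The median difference of the 47 was -0.27, and that of all genes counted was 0.0048. The exceptions were CENPK, CENPI and UBE2C. In A549, 24 of the 47 were lower, against 48.4% of all 11405 genes counted and 49% of those within the same range of mean signal, and the median difference was -0.0056, beside 0.0051 for all genes counted. In bulk RNA such as this, fewer cells in mitosis and less of each message per mitotic cell cannot be told apart.

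Markers of cell type also differed between the H441 arrays. Of 6 surfactant lineage genes, the 5 bright enough to be counted in H441 were higher with siTAZ, by 0.30 to 0.67, 2 of them at least 1.5-fold, and the median signal of the 6 was 8.83 with siTAZ and 8.28 with siNTC. In A549 only 2 were counted, 1 lower and 1 higher, and the median signal was 5.75 with siTAZ and 5.62 with siNTC. All 6 epithelial genes were lower with siTAZ in H441 (-0.42 to -0.07), and 4 of 6 were lower in A549. Over both lines limma called 0 of these 12 genes. An unadjusted limma p under 0.05 was reached by 4 surfactant genes, 1 of them on the lower side, and by 3 epithelial genes, all on the lower side. Over all genes the shares were 6.51% lower and 6.74% higher. With an intensity trend, and under no other setting, SFTPB was called higher and KRT7, KRT8 and KRT18 lower. The part of these marker genes in the lower signal of the mitosis genes was not tested.

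**Figure D1:**
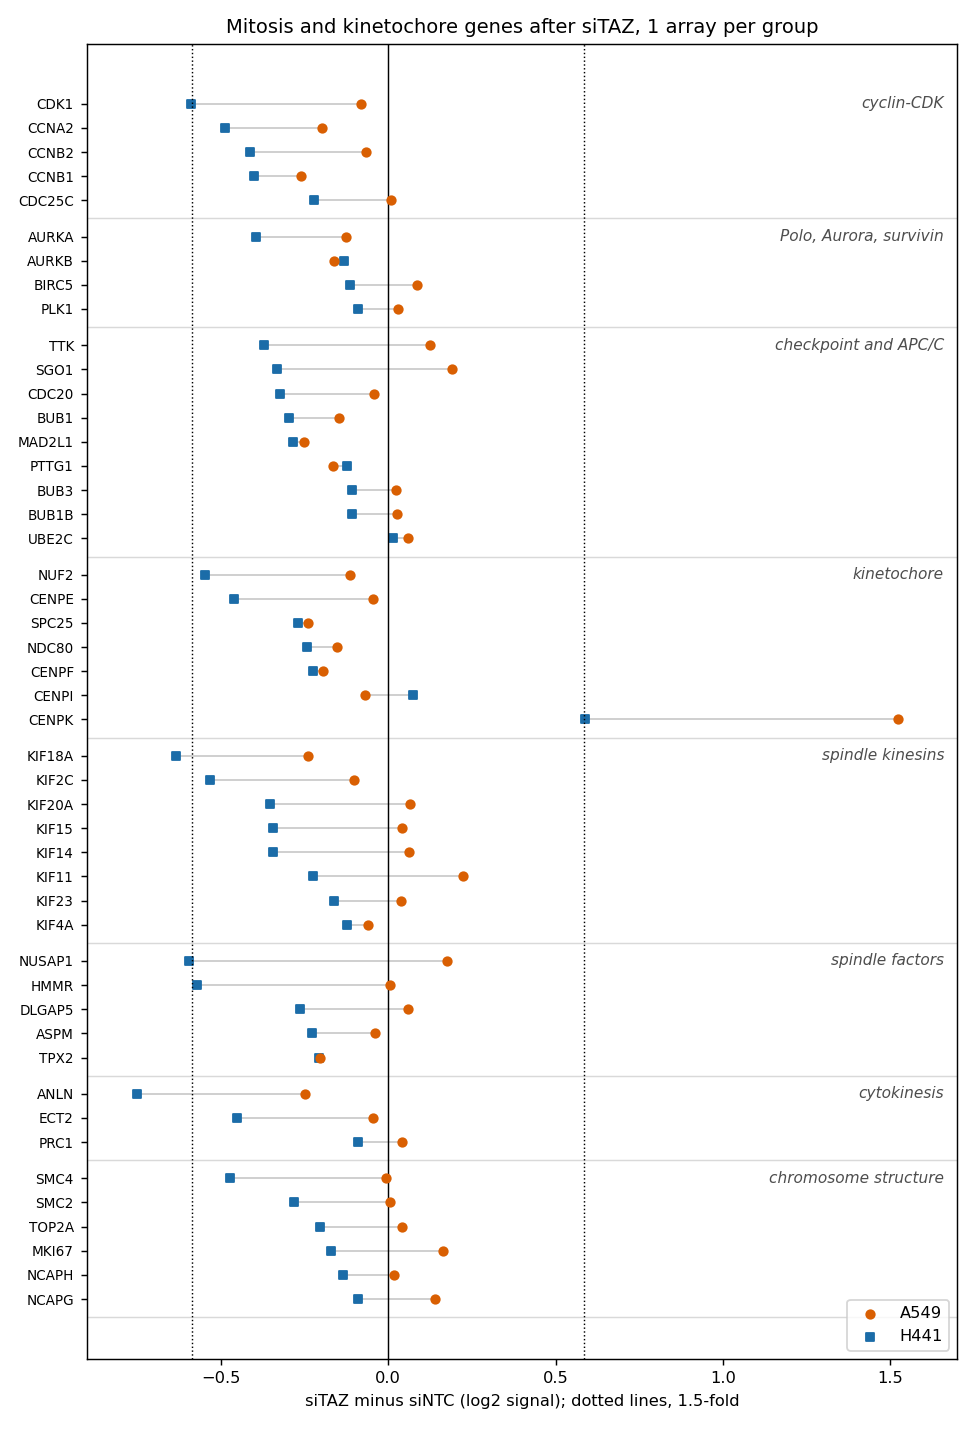
Difference in log2 signal, siTAZ minus siNTC, of the 47 mitosis and kinetochore genes in A549 (orange circles) and H441 (blue squares), 1 array per group, sorted by the H441 difference within 8 roles; dotted lines mark 1.5-fold. The H441 points lie left of 0 for 44 genes, and the A549 points lie on both sides. CENPK lies far to the right in A549 and just past the 1.5-fold line in H441.

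Over both lines, limma called 1 of the 47 genes lower, ANLN, against 1.29% of the 12740 genes tested, and 1 higher, CENPK, against 1.19%. A call is a Benjamini-Hochberg adjusted p under 0.05 over all genes tested, from a fit of the 4 arrays with the cell line as a block. An unadjusted limma p under 0.05 was reached by 11 members on the lower side, against 6.51% of all genes (829), and by CENPK alone on the higher side, against 6.74%. The fit has 1 residual degree of freedom and tests a shift shared by the lines, so a gene that differed in H441 and not in A549 has little chance of a call. Whether the lines responded differently could not be tested with 4 arrays. As a description, the H441 difference was below the A549 difference for 44 of the 47 genes, against 52.9% of all genes counted in both.

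At least 1.5-fold, 4 of the 47 were lower in H441, ANLN, KIF18A, NUSAP1 and CDK1, against 0.974% of all genes, and 1 was higher, CENPK, against 0.479%. CDK1 and CENPK were just past that threshold, and HMMR just short of it (1.49-fold lower). The count was 7 when each array was centred on its own median and 2, ANLN and KIF18A, after quantile normalization or cyclic loess of the arrays. At 1.2-fold, 24 were lower in H441, against 10.7%. In A549, 0 of the 47 were 1.2-fold lower, against 8.66%, and CENPK was the only one at least 1.5-fold higher, against 1.76%. The count at 1.2-fold in A549 depended on the scaling. CCNB1 was just short of it (1.197-fold lower) and passed it with median centring (-0.269). After quantile normalization ANLN (-0.265), CCNB1 (-0.264) and SPC25 (-0.265) passed it.

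**Figure D2:**
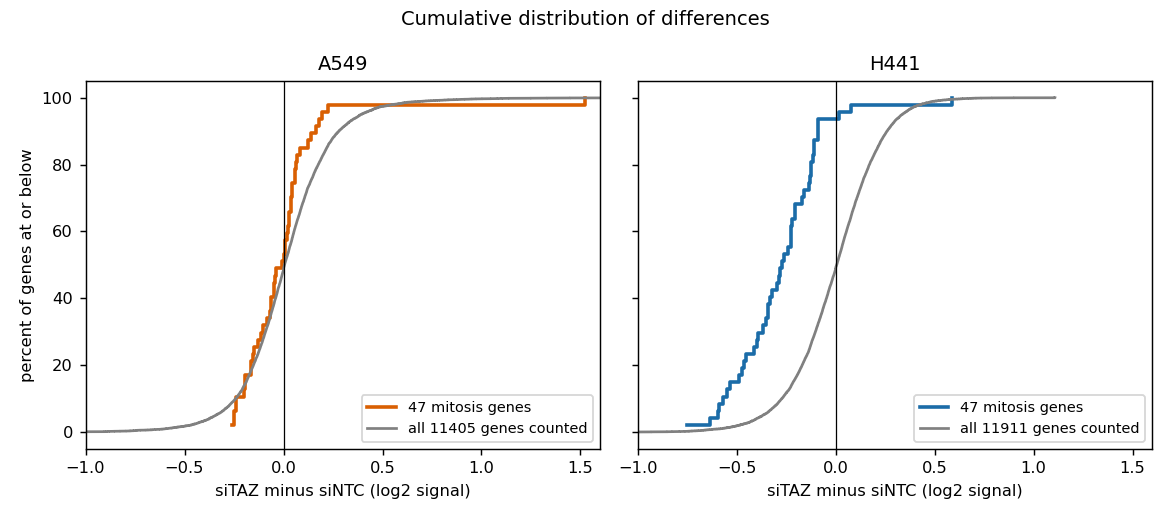
Cumulative percent of genes at or below each difference (siTAZ minus siNTC, log2 signal) for the 47 mitosis genes (coloured) and all genes counted in the line (grey), in A549 (left) and H441 (right); the axis shows -1 to 1.6. The H441 curve of the mitosis genes lies left of that of all genes up to the last few genes, with a median of -0.27 against 0.0048, while in A549 the curves cross near 0.

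Cyclins, CDK1 and the phosphatase CDC25C were lower in H441 for 5 of 5 genes, with a median of -0.41. In A549 4 of 5, all but CDC25C, were lower, with a median of -0.08. CDK1, the kinase that drives entry into mitosis, was at 8.47 with siTAZ and 8.55 with siNTC in A549. In H441 it was at 8.59 with siTAZ and 9.18 with siNTC, which is 1.503-fold lower. The difference is small in A549 and much larger in H441, and over both lines CDK1 did not pass (-0.33 ± 0.13 limma SE, 2 lines, limma adjusted p = 0.21).

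CCNB1, the cyclin that activates CDK1 in mitosis, was at 11.26 with siTAZ and 11.52 with siNTC in A549. In H441 it was at 11.22 with siTAZ and 11.62 with siNTC. It was lower by a like amount in both lines (1.197-fold in A549 and 1.32-fold in H441) and did not pass over both (-0.33 ± 0.12 limma SE, limma adjusted p = 0.17). CCNA2, cyclin A2, had -0.20 in A549 and -0.49 in H441. CCNB2, the second B-type cyclin, had -0.07 in A549 and -0.41 in H441. CDC25C, the phosphatase that removes inhibitory marks from CDK1, had 0.01 and -0.22.

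Of the Polo and Aurora kinases and survivin, 4 of 4 were lower in H441 and 2 of 4 in A549, mostly by little. AURKA, the spindle pole Aurora kinase, was at 10.20 with siTAZ and 10.33 with siNTC in A549, and at 10.11 with siTAZ and 10.50 with siNTC in H441. Its siTAZ signal was the lower one in both lines, and it did not pass over both (-0.26 ± 0.12 limma SE, limma adjusted p = 0.34). PLK1, the Polo kinase needed for spindle assembly, was at 11.03 with siTAZ and 11.003 with siNTC in A549, and at 10.45 with siTAZ and 10.54 with siNTC in H441, a difference under 0.1 in both (limma adjusted p = 0.95). PLK1 has a CCAAT box upstream of a TTTGAA element, as do KIF18A and CCNB2, whose H441 signals were 1.55-fold and 1.33-fold lower with siTAZ. The number of CCAAT boxes and their spacing from TTTGAA differ among these promoters. AURKB, the kinase of the chromosomal passenger complex, had -0.16 in A549 and -0.13 in H441. BIRC5, survivin, which targets that complex to centromeres, had 0.09 in A549 and -0.11 in H441, and its dimmer probe set, below the table median on every array, had -0.08 and -0.18.

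**Figure D3:**
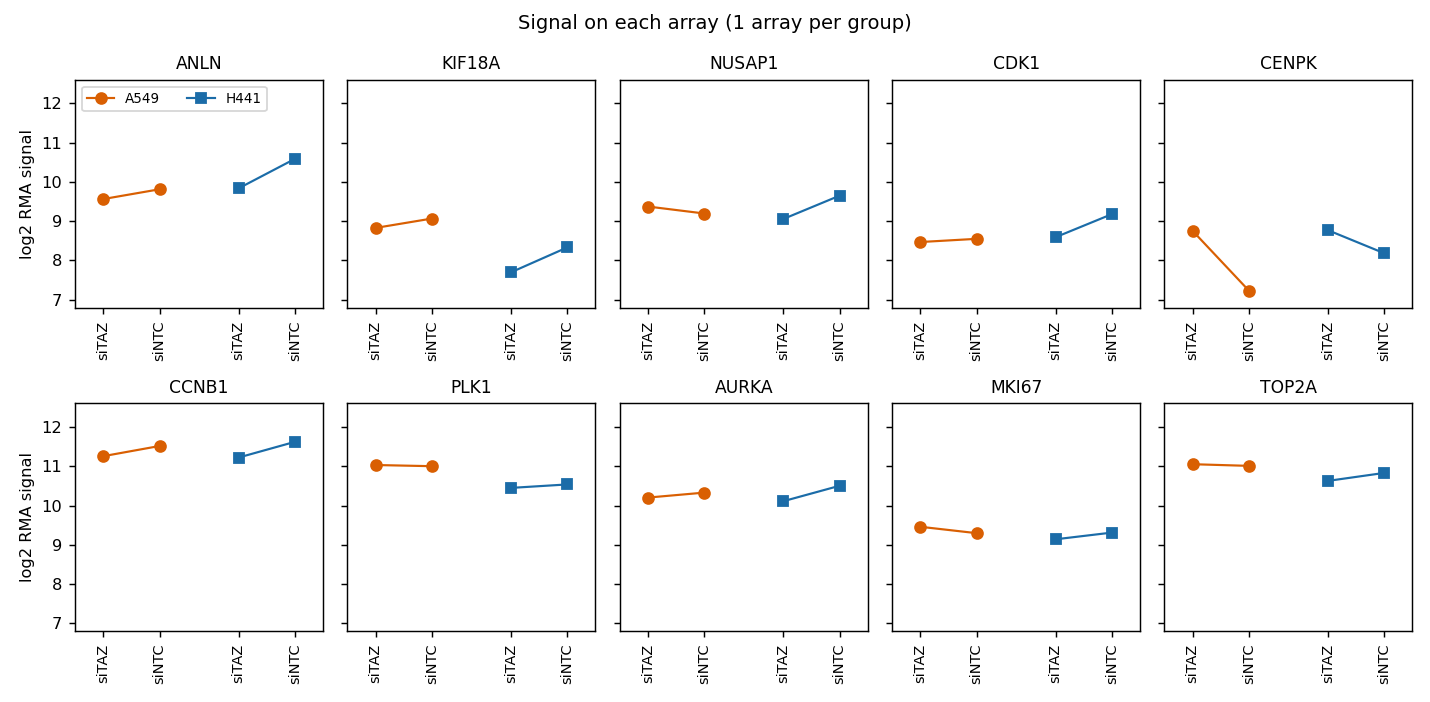
Log2 RMA signal of 10 mitosis genes on each of the 4 arrays (siTAZ left of siNTC; A549 orange circles, H441 blue squares), 1 array per group with no error bars. The slope between the H441 arrays is steeper than that between the A549 arrays for ANLN, KIF18A, NUSAP1 and CDK1, nearly flat in both lines for PLK1, and turned the other way in both lines for CENPK.

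Spindle checkpoint genes and regulators of the anaphase-promoting complex were lower in H441 for 8 of 9 genes (median -0.28) and in A549 for 4 of 9 (median 0.03). TTK, the kinase that starts checkpoint signalling, was at 8.21 with siTAZ and 8.09 with siNTC in A549, and at 8.22 with siTAZ and 8.59 with siNTC in H441. SGO1, shugoshin, which protects centromeric cohesion, was at 8.10 with siTAZ and 7.91 with siNTC in A549, and at 7.77 with siTAZ and 8.10 with siNTC in H441. Both were thus higher with siTAZ in A549 and lower in H441. MAD2L1, the checkpoint protein that inhibits CDC20, differed alike in both, with -0.25 in A549 and -0.28 in H441 (limma adjusted p = 0.30). CDC20, the activator of the complex, had -0.04 and -0.32, and BUB1, a kinetochore kinase, had -0.15 and -0.30. BUB3 and BUB1B, further checkpoint proteins, each had 0.03 in A549 and -0.11 in H441, and PTTG1, securin, had -0.16 and -0.12. UBE2C, the E2 enzyme of the complex, had 0.06 and 0.02.

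Of 7 kinetochore genes, 5 were lower in H441 and 6 in A549, and the group holds the one gene that rose. CENPK, a subunit of the inner kinetochore network that sits on centromeric chromatin, was at 8.75 with siTAZ and 7.23 with siNTC in A549, and at 8.77 with siTAZ and 8.18 with siNTC in H441. The 2 siTAZ arrays were nearly equal and the siNTC arrays differed by 0.95, so that CENPK was 2.88-fold higher in A549 and 1.503-fold higher in H441. It rose over both lines (1.06 ± 0.15 limma SE, 2 lines, limma adjusted p = 0.00021). That call was lost after cyclic loess (limma adjusted p = 0.078), where the mean difference was 1.07. CENPI, a subunit of the same network, had -0.07 in A549 and 0.08 in H441.

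The 5 outer kinetochore genes had lower siTAZ signals in both lines. NUF2, a subunit of the NDC80 complex that grips microtubules, was at 8.90 with siTAZ and 9.01 with siNTC in A549, and at 9.04 with siTAZ and 9.59 with siNTC in H441. Its partners had smaller differences in H441 and larger ones in A549: NDC80 had -0.24 in H441 and -0.15 in A549, and SPC25 had -0.27 in H441 and -0.24 in A549, beside -0.55 and -0.11 for NUF2. CENPE, the kinesin that carries chromosomes to the spindle equator, had -0.05 in A549 and -0.46 in H441. CENPF, a large protein of the outer kinetochore, had -0.19 and -0.22.

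All 8 spindle kinesins were lower in H441 (median -0.34), and 3 of 8 were lower in A549 (median 0.04). KIF18A, which dampens chromosome movements at the plus ends of microtubules, was at 8.83 with siTAZ and 9.07 with siNTC in A549. In H441 it was at 7.70 with siTAZ and 8.33 with siNTC, 1.55-fold lower. It was lower in both lines and missed the threshold (-0.44 ± 0.12 limma SE, 2 lines, limma adjusted p = 0.062). KIF18A passed with median centring (limma adjusted p = 0.021), with a stricter filter on dim genes (0.045) and with an intensity trend in the prior (0.0082). It did not pass after quantile normalization (limma adjusted p = 0.14), after cyclic loess (0.23) or without the filter (0.19).

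KIF2C, which depolymerises microtubules at centromeres, was at 8.13 with siTAZ and 8.23 with siNTC in A549, and at 9.12 with siTAZ and 9.66 with siNTC in H441. KIF11, the motor that pushes spindle poles apart, was higher with siTAZ in A549 (9.57, against 9.35 with siNTC) and lower in H441 (9.01, against 9.23 with siNTC). The H441 differences of KIF20A, KIF14 and KIF15, motors of cytokinesis and spindle assembly, lay between -0.35 and -0.34, beside 0.04 to 0.07 in A549. KIF23, a motor of the central spindle, had 0.04 in A549 and -0.16 in H441, and the chromosome-bound motor KIF4A had -0.06 and -0.12. A probe set that also names KIF4B, and was left out for that reason, had -0.37 and -0.29.

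Spindle factors other than kinesins were lower in H441 for 5 of 5 genes and in A549 for 2 of 5. NUSAP1, which bundles spindle microtubules near chromosomes, was at 9.37 with siTAZ and 9.20 with siNTC in A549, and at 9.06 with siTAZ and 9.65 with siNTC in H441. It was thus 1.13-fold higher in A549 and 1.51-fold lower in H441, and did not pass over both lines (-0.21 ± 0.14 limma SE, limma adjusted p = 0.59). HMMR, a spindle-associated hyaluronan receptor, was at 8.41 with siTAZ and 8.40 with siNTC in A549, and at 8.59 with siTAZ and 9.16 with siNTC in H441. TPX2, the activator of AURKA on the spindle, had -0.20 in A549 and -0.21 in H441. DLGAP5 and ASPM, both spindle proteins, had -0.26 and -0.23 in H441.

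Cytokinesis genes include the one member that fell. ANLN, anillin, the scaffold of the contractile ring, was at 9.56 with siTAZ and 9.81 with siNTC in A549, and at 9.84 with siTAZ and 10.59 with siNTC in H441. The siTAZ array was the lower one in both lines, 1.19-fold in A549 and 1.68-fold in H441, and ANLN fell over both (-0.50 ± 0.13 limma SE, 2 lines, limma adjusted p = 0.033). The call was lost without the filter on dim genes (limma adjusted p = 0.16), after quantile normalization (0.11) and after cyclic loess (0.20). ECT2, the exchange factor that activates RhoA at the division plane, had -0.05 in A549 and -0.45 in H441. PRC1, which bundles the central spindle, had 0.04 and -0.09.

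Genes of chromosome structure were lower in H441 for 6 of 6 and in A549 for 1 of 6. TOP2A, the topoisomerase that untangles sister chromatids, was at 11.05 with siTAZ and 11.01 with siNTC in A549, and at 10.63 with siTAZ and 10.83 with siNTC in H441. MKI67, which coats mitotic chromosomes and is the antigen of the common proliferation stain, was at 9.46 with siTAZ and 9.30 with siNTC in A549, and at 9.14 with siTAZ and 9.31 with siNTC in H441. Each was higher with siTAZ in A549 and lower in H441, by little, and neither passed over both lines (limma adjusted p = 0.85 for TOP2A and 0.997 for MKI67). The condensin core gene SMC4 had -0.01 in A549 and -0.47 in H441, and SMC2, its partner, had 0.01 and -0.28. NCAPG and NCAPH, the other condensin subunits listed, had -0.09 and -0.14 in H441.

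Promoter letters and differences were set side by side for the 41 genes with a window. All 29 genes with a TTTGAA match were lower in H441, and 10 of the 12 without one were, the exceptions being CENPK and CENPI. The medians in H441 were -0.27 with a match and -0.31 without. The 8 genes with GGAATG, CENPE, CENPF, CENPK, ECT2, HMMR, KIF2C, NUF2 and SMC4, had H441 differences from -0.57 to 0.59 with a median of -0.47, beside -0.26 for the 33 without it. In A549 those medians were -0.05 and 0.01. These genes share arrays and many share regulation, and the shares are given as a description.

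The siNTC arrays alone differed between the lines for these genes. The siNTC signal was higher in H441 than in A549 for 38 of the 47 genes, against 67.7% of all genes, with a median A549 minus H441 difference of -0.45, against -0.19 over all genes. Among all genes within the same range of mean signal the share was 73.0% and the median -0.39, closer to those of the 47. The largest gaps were those of KIF2C (8.23 in A549 and 9.66 in H441) and NDC80 (6.65 in A549 and 8.04 in H441), while KIF18A was higher in A549 (9.07, against 8.33 in H441). Across the 47 genes, the H441 difference had a Pearson correlation of -0.08 with the gap between the control arrays, H441 minus A549, and of -0.23 without CENPK, beside -0.16 over all genes tested. The H441 and A549 differences were correlated at 0.61 with CENPK and 0.27 without it, against 0.32 over all genes tested. These correlations are across genes that share the 4 arrays, and the H441 siNTC value enters both measures of the first pair.

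Related genes outside the 47 were counted in the same way, beside 48.8% of all genes counted that were lower in H441 and 48.4% in A549. Of 29 other kinetochore and passenger genes, 25 were lower in H441 (median -0.19), and 12 of the 28 counted were lower in A549 (median 0.04). Of 40 other genes of mitotic entry, spindle and cytokinesis, 35 were lower in H441 (median -0.18) and 23 in A549 (median -0.02). Of 25 genes of the anaphase-promoting complex and of cohesin, 19 were lower in H441 (median -0.10) and 11 in A549 (median 0.04). For genes of G1/S and DNA replication, 31 of 39 were lower in H441 (median -0.11) and 28 of 38 in A549 (median -0.07). The difference between these lists and the 47 genes was not tested.

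**Figure D4:**
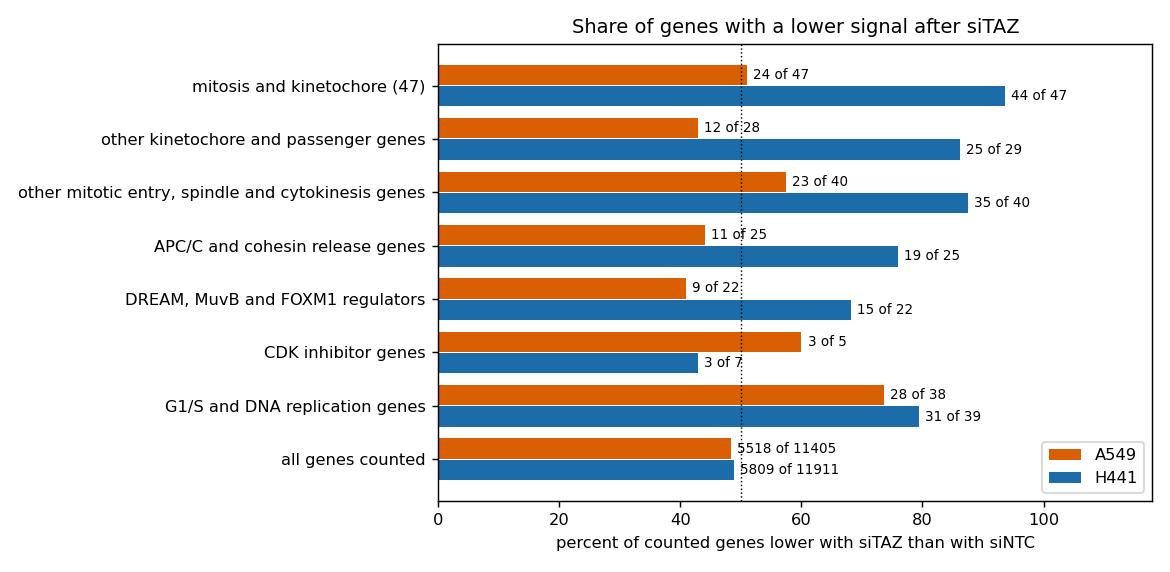
Percent of counted genes with a lower signal with siTAZ than with siNTC in A549 (orange) and H441 (blue), for the 47 mitosis and kinetochore genes, 6 related lists and all genes; the numbers are genes lower of genes counted. The bars of the mitosis genes stand at 24 of 47 in A549 and 44 of 47 in H441, while those of G1/S and DNA replication genes are both above 70%.

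Among those related kinetochore genes, MIS18A, which helps load the centromeric histone, rose, and OIP5, its partner in the same complex, fell. MIS18A was at 8.72 with siTAZ and 7.52 with siNTC in A549, and at 9.73 with siTAZ and 9.38 with siNTC in H441 (0.77 ± 0.15 limma SE, limma adjusted p = 0.0033). Like CENPK it was higher with siTAZ in both lines, and more so in A549. OIP5 was at 6.96 with siTAZ and 7.47 with siNTC in A549, and at 7.01 with siTAZ and 7.42 with siNTC in H441 (-0.46, limma adjusted p = 0.032). SKA3, which couples kinetochores to microtubules, had -0.15 in A549 and -0.52 in H441 (limma adjusted p = 0.18).

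In the list of mitotic entry, spindle and cytokinesis, BORA, the cofactor through which AURKA activates PLK1, fell. It was at 6.76 with siTAZ and 7.12 with siNTC in A549, and at 7.17 with siTAZ and 7.80 with siNTC in H441 (-0.50, limma adjusted p = 0.024). WEE1, the kinase that restrains CDK1, had -0.46 in A549 and -0.33 in H441 (limma adjusted p = 0.082), and CDC25A, the phosphatase that opposes it, had -0.29 and -0.47 (0.094). Both were called lower with median centring (limma adjusted p = 0.039 for WEE1 and 0.047 for CDC25A) and with an intensity trend (0.026 and 0.039). Neither was called under any other setting, for instance after cyclic loess (limma adjusted p = 0.21 for WEE1 and 0.22 for CDC25A). With the mean of its probe sets in place of the brightest, the difference of WEE1 over both lines was -0.17, against -0.39 (limma adjusted p = 0.59). CDC23, a subunit of the anaphase-promoting complex, rose, with 9.52 with siTAZ and 8.96 with siNTC in A549, and 9.58 with siTAZ and 9.22 with siNTC in H441 (0.46, limma adjusted p = 0.035). ANAPC10, another subunit, had -0.23 and -0.43 (0.17), and the cohesin gene STAG2 had 0.42 in A549 and -0.27 in H441 (0.89).

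Of 22 genes for the factors that control late cell cycle promoters, 1 fell and 0 rose in the limma test. Over all genes tested 1.29% fell and 1.19% rose. LIN52, a subunit of the MuvB core of the DREAM complex, was at 6.79 with siTAZ and 7.57 with siNTC in A549, and at 7.57 with siTAZ and 8.20 with siNTC in H441 (-0.71, limma adjusted p = 0.001). Its siTAZ array was the lower one in each line by more than 0.6. FOXM1 and MYBL2, activators of mitosis genes, had -0.12 and 0.18 in A549, and -0.12 and 0.19 in H441. RBL2, the p130 pocket protein of the DREAM complex, had -0.14 in A549 and -0.37 in H441 (limma adjusted p = 0.34), and TFDP1, the partner of E2F proteins, had 0.31 and 0.26 (0.25).

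CDK inhibitor genes had 0 calls among 7 tested by limma, with 1 on the lower side at an unadjusted p under 0.05, against 6.51% of all genes. CDKN1B, p27, was at 7.82 with siTAZ and 8.18 with siNTC in A549, and at 8.66 with siTAZ and 9.11 with siNTC in H441 (-0.41, limma adjusted p = 0.068). CDKN1B was called lower with median centring (limma adjusted p = 0.030), the stricter filter (0.040) and the intensity trend (0.016). It was not called after quantile normalization (limma adjusted p = 0.11), after cyclic loess (0.19), without the filter (0.15) or with the mean of probe sets (0.069). CDKN1A, p21, had -0.003 in A549 and 0.21 in H441. CDKN2D had 0.13 and 0.30, and CDKN2B, below the table median in A549, had 0.19 in H441. Among the genes of G1/S and DNA replication, RRM2 and CCND1 fell and RFC5 rose. RRM2, a ribonucleotide reductase subunit, had -0.50 in A549 and -0.55 in H441 (limma adjusted p = 0.013). The clamp loader gene RFC5 had 0.70 in A549 and 0.34 in H441 (limma adjusted p = 0.021). CCND1, cyclin D1, was at 9.47 with siTAZ and 10.22 with siNTC in A549, and at 10.45 with siTAZ and 10.71 with siNTC in H441 (-0.50, limma adjusted p = 0.032).

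Over all 12740 genes tested, limma called 1.29% lower and 1.19% higher. The related lists with calls had 29 kinetochore and passenger genes tested, 25 of the anaphase-promoting complex and cohesin, and 40 of mitotic entry, spindle and cytokinesis. A further 22 were factors of late cell cycle promoters, and 39 were genes of G1/S and DNA replication. The 8 calls in these related lists (MIS18A, OIP5, CDC23, BORA, LIN52, RRM2, RFC5 and CCND1) did not hold under every setting. By limma, 0 of the 8 were called once the arrays had been normalized by cyclic loess (adjusted p of 0.061 to 0.25). Quantile normalization kept MIS18A and LIN52, and testing without the filter on dim genes kept LIN52 alone.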

How the data were processed

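The authors deposited log2 signals of 28869 probe sets on 4 arrays, summarised with RMA per the submitters' processing notes. Which RMA version was run, and on which arrays jointly, is not stated in those notes. The values ran from 4.20 to 14.83, from which the log2 scale was inferred. RMA shrinks differences of dim probe sets, and precision is limited by the number of arrays.

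Names came from the platform's annotation, in which 19310 probe sets had 1 symbol, 1752 several and 7807 none; for 685 genes the brightest of several probe sets was kept. The test was limma 3.58.1 (R 4.3.3; lmFit, eBayes; two-sided) on the 12740 genes with any array at or above the table median, with cell line as a block. Its moderated SE rests mostly on a prior worth 22.3 degrees of freedom, not on the spread of 1 gene.

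The members, the gene lists, the roles, the promoter motifs and the tests were chosen with earlier results of these data known. Named in full were members called by limma or at least 1.5-fold different in a line, 6 textbook markers (CCNB1, CDK1, PLK1, AURKA, MKI67, TOP2A), and called genes and up to 3 with the largest differences of each related list; other members were described after their values were seen. Separate cultures are not described in the labels, so p-values do not measure the spread between cultures. They rest on the disagreement between the 2 lines and mostly on the prior drawn from all genes tested. Alternatives were 3 scalings, 2 filters, the mean of probe sets, an intensity trend and a fit without the cell line.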

Additional observations from a re-analysis of the deposited data

Results flagged for a closer look

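The probe set that names both CENPA and SLC35F6 was left out of the comparisons, and its signal was higher with siTAZ than with siNTC, which is why it is given here. It was at 9.08 with siTAZ and 8.58 with siNTC in A549, a difference of 0.50, and at 9.12 with siTAZ and 9.01 with siNTC in H441, a difference of 0.11. Which of the 2 genes gave that signal was not tested.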

How the results depend on the processing

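Every member passed the filter on dim genes in both lines, so leaving it out could not change their differences. The mean of probe sets could alter only BIRC5. The lower signal of the mitosis genes in H441 held under the 3 scalings and the stricter filter, with medians from -0.35, with each array centred on its own median, to -0.24. That centring moved the H441 median of all genes to -0.08. The 44 lower genes became 46 with it, while the share lower over all genes counted in H441 went from 48.8% to 66.8%. Under the stricter filter 42 of 45 were lower, against 56.0% of all genes counted. The count at least 1.5-fold lower in H441 was 7 with median centring and 2 after quantile normalization or cyclic loess, against 4. Members called lower by limma were 2 with median centring or the stricter filter, 4 with an intensity trend (ANLN, CCNA2, CCNB1 and KIF18A) and 0 after quantile normalization, cyclic loess, without the filter, or without the cell line in the fit. Members called higher were 0 after cyclic loess and without the cell line, when limma called 0 of 12740 genes with 11 at an unadjusted p under 0.05, and 1 otherwise. Over all genes limma called 164 lower and 151 higher, against 277 and 123 with median centring, 69 and 77 after quantile normalization, 11 and 9 after cyclic loess, 45 and 47 without the filter, and 316 and 278 with the trend. The mean difference of MKI67 over both lines, -0.0039, was 0.015 after quantile normalization and 0.023 after cyclic loess, that of PLK1, -0.03, was 0.0073 after cyclic loess, and that of CDKN2B, 0.0071, was -0.0398 with median centring and -0.015 after cyclic loess. Of the 8 genes called in related lists, 7 were called with median centring (not CDC23, limma adjusted p = 0.059), 8 with the trend or the mean of probe sets, 6 under the stricter filter, which left OIP5 and BORA untested, and 0 without the cell line. For these shifts the cause was not tested. The cell line block pairs the arrays of a line in all but the fit without it.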
